A study of Mus musculus with 16 samples.

Results

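A set of 10 genes that move sterols through the intestinal wall, or that sense them, were followed in the duodenum and ileum of mice that lacked Neurog3 in the intestinal epithelium and of their controls. They are Npc1l1, Scarb1, Soat2, Abcg5, Abcg8, Abca1, Abcg1, Nr1h3, Nr1h2 and Mylip, which make up 10 of the 55359 genes counted. These genes were chosen by symbol for their known roles, with earlier results of these data known. RNA sequencing had been done on 16 libraries from 8 adult male C57BL/6N mice kept on standard chow, with 4 libraries in each of 4 groups. All mice carried floxed Neurog3 alleles (Neurog3f/f), and tissue was taken 18 weeks after tamoxifen. The 4 mutants, NFVCT27, NFVCT38, NFVCT153 and NFVCT190, also carried Villin-CreERT2, a recombinase that tamoxifen activates and that a promoter of the intestinal epithelium drives. The 4 controls, NF17, NF29, NF32 and NF152, lacked this transgene, and the labels do not say separately that they were given tamoxifen, so an effect of the transgene, or of the drug if controls went without it, cannot be told apart from that of Neurog3 loss. Each animal gave a duodenal and an ileal library. Neurog3 starts the fate of enteroendocrine cells, the hormone-releasing cells of the gut.

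Dietary and biliary cholesterol enters the enterocyte through Npc1l1, the brush-border protein that ezetimibe blocks. Soat2 esterifies cholesterol for packing into chylomicrons. Abcg5 and Abcg8 work as a pair that returns plant sterols and cholesterol to the lumen, while Abca1, in the basolateral membrane, loads cholesterol onto apolipoprotein A-I to form high-density lipoprotein. Abcg1 passes cholesterol on to high-density lipoprotein and is best known from macrophages, and Scarb1 is the receptor of that lipoprotein. Nr1h3 (LXR alpha) and Nr1h2 (LXR beta) are nuclear receptors that bind oxysterols as partners of retinoid X receptors. Among their targets are Abca1, Abcg1, Abcg5, Abcg8 and Mylip, a ubiquitin ligase that limits lipoprotein uptake. When sterol falls, SREBP2, the product of Srebf2, instead drives the genes of cholesterol synthesis and uptake.

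Promoter sequence is shown for Abca1, an LXR target called in the ileum, and for the luminal exporters, whose start sites lie back to back. RefSeq windows on build GRCm38.p6 were at hand for 7 of the 10 genes. In the Abca1 sequence, the 250 bases before the start site, capitals mark an E-box (CACGTG, at 147 to 142 bases before the start) and a TATA box (TATAAA, at 29 to 24). In the second sequence, the 109 bases between the start of Abcg5 and the nearer of 2 RefSeq starts of Abcg8, written towards Abcg8, capitals mark a pair of GATA boxes and a TATA box, all read on the opposite strand (AGATAA and TATAAA), which is the direction of Abcg5. Counted back from the Abcg5 start, the GATA boxes lie at 52 to 47 and 22 to 17 bases. The TATA box letters lie at 84 to 79, farther from the start than in Abca1.
Abca1, chr4:53159896-53160145, minus strand: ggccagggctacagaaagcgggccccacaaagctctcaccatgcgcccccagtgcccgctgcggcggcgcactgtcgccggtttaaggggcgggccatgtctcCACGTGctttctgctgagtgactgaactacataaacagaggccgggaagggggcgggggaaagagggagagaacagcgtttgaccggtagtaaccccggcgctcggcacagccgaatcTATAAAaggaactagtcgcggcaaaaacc
Abcg5 to Abcg8, chr17:84683012-84683120, plus strand: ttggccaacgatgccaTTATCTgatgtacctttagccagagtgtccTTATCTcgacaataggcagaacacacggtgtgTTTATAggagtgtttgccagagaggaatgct
Motifs were searched on both strands, after the sequences had been seen. Of the 32851 promoter windows of this length, 6.02% held the E-box, 9.99% the GATA box and 12.4% the TATA box. The receptor site letters AGGTCA, a building block of nuclear receptor elements, were in 4607 windows and, among the 7 genes, in that of Npc1l1 alone. Only exact matches were counted, so receptor elements with other letters were not sought, in Abca1 or in the other genes. The matches describe letters, not bound sites.

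Libraries held 8213889 to 35076714 counts. Neurog3 had 0 counts in all 8 mutant libraries, against 12 to 37 counts in the control duodenum and 8 to 27 counts in the control ileum, so the labels held for the targeted gene. The tissue labels held as well: Slc10a2, the ileal bile acid transporter, averaged 1194 ± 184 CPM (counts scaled to a common library size after TMM, mean ± SD, n = 4) in mutant ileum against 2.01 ± 1.13 CPM in mutant duodenum, and 1247 ± 254 CPM in control ileum against 1.63 ± 0.63 CPM in control duodenum. Cell type markers moved with genotype in several lists, judged by an exact two-sided permutation test on their summed CPM, for which the smallest p that 4 against 4 libraries allow is 0.0286. T cell markers (9 of 9 detected) summed to 52.8 to 137 CPM in mutant duodenum and 239 to 318 CPM in control duodenum (exact permutation p = 0.0286). Smooth muscle markers (10 of 10 detected) summed to 5576 to 7434 CPM in mutant ileum and 3494 to 4879 CPM in control ileum (exact permutation p = 0.0286). Pancreatic acinar markers (13 of 13 detected) varied widely within both genotypes, from 15603 to 183539 CPM in mutant duodenum and from 56556 to 152192 CPM in control duodenum (exact permutation p = 0.914). Their part in the results was not tested beyond the covariate fits given with them. In bulk tissue, fewer cells of a type and less RNA per cell cannot be told apart.

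All 10 genes were expressed in all 16 libraries, the lowest count being 66. Set on a scale of CPM per kilobase of exon, Npc1l1 stood highest of the 10 in each group: 109 ± 21 in mutant ileum, 72.3 ± 10.9 in control ileum, 78.5 ± 24.1 in mutant duodenum and 69.1 ± 18.1 in control duodenum. Its libraries overlapped those of Abcg5 in all of these groups except mutant ileum. The exporters followed, with Abcg5 between 46.7 and 63.7 CPM per kb and Abcg8 between 32.2 and 42.1 over the 4 group means, and Soat2 lay between 26.0 and 37.2. Abcg8 and Soat2 overlapped in every group. Both LXR genes were lower, Nr1h3 at 12.9 to 18.0 CPM per kb and Nr1h2 at 10.8 to 16.8. Abca1 was at 4.18 to 10.5 CPM per kb. Scarb1, at 1.11 to 9.66, and Mylip, at 2.46 to 7.51, changed places between tissues, and Abcg1 was lowest in the duodenum at 1.05 ± 0.24 in mutants and 1.35 ± 0.16 in controls. Abcg5 and Abcg8 share 82 bases of exon on opposite strands, which is 3.02% and 2.19% of their exon length, and the strand setting of the counting is not given in the sources used here.

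**Figure D1:**
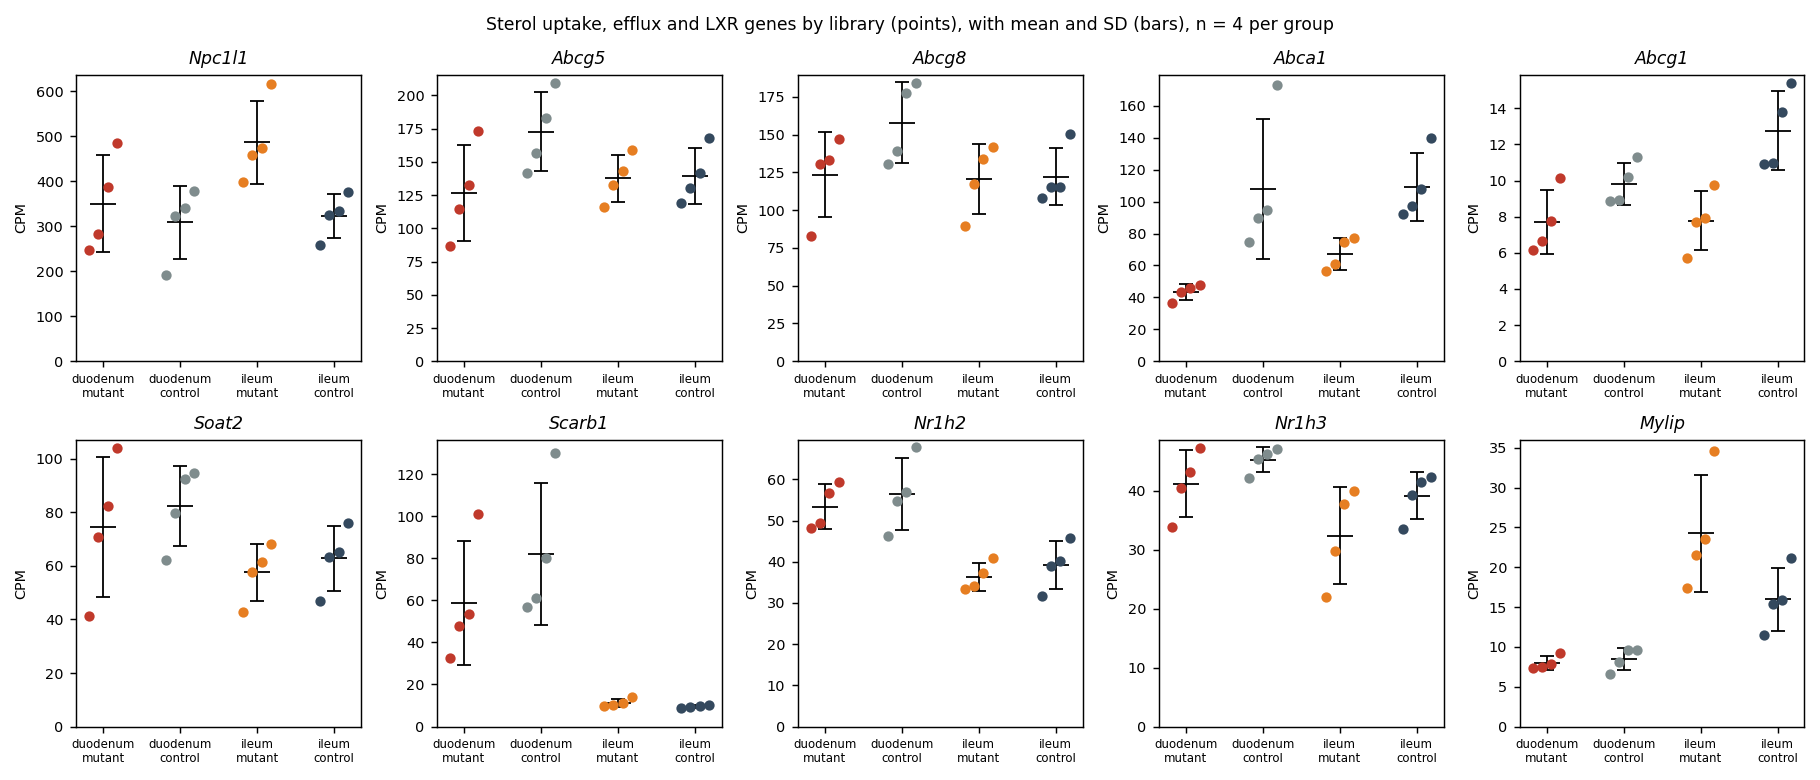
Level of each of the 10 genes (CPM) in every library, with group means, for mutant and control duodenum and ileum (4 libraries a group). Abca1 is lower in all mutant libraries than in any control library of the same tissue, and Scarb1 is high in the duodenum in both genotypes.

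The first comparison asks how these genes differ in the duodenum after Neurog3 loss. Abca1 had lower values in all mutants than in any control, while the other 9 genes overlapped between genotypes, and none of the 10 passed the test, edgeR's quasi-likelihood test with Benjamini-Hochberg adjustment over all genes tested and a threshold of 0.05. Of the 14703 genes tested, 58 passed, or 0.394% (0.0952% higher and 0.299% lower), and 5.75% had groups that did not overlap (2.77% higher and 2.98% lower). At an unadjusted p under 0.05 there were 2 of the 10, Abca1 and Abcg5, against 1280 of the 14703 genes, and DESeq2 called 1, Abca1. With scaling to epithelial markers 167 genes were called, 15 of them higher, against 14 of 58, and Abca1 was among them (adjusted p = 0.0184); the median of all genes then shifted by -0.23 (log2). Abca1 was at 36.4, 43.4, 47.5 and 46.0 CPM in the duodenum of mutants NFVCT27, NFVCT38, NFVCT153 and NFVCT190, and at 89.6, 173, 94.8 and 74.4 CPM in controls NF17, NF29, NF32 and NF152. Every mutant library lay below every control library, and the controls spread far more than the mutants, with NF29 on top. The log2 fold change of Abca1, mutant over control, was -1.32 (SE 0.24, 95% interval -1.86 to -0.79, adjusted p = 0.0547). Leaving out control NF29 or control NF152 took the adjusted p under the threshold, and over the 8 fits without 1 library it ran from 0.0145 to 0.165, with log2 fold changes of -1.46 to -1.0005. In the same duodena T cell markers were lower in mutants (3 of 9 called lower). Proximal markers (6 of 6 detected, 0 called, all 6 below 0) summed to 1061 to 2183 CPM in mutants and 1681 to 3678 CPM in controls. The exact permutation p was 0.0571 for their sum and 0.0286 for the mean of their log values. For enterocyte markers (8 of 8 detected, 0 called, 7 below 0 and 1 above) the exact permutation p was 0.257 and 0.0571. None of the macrophage markers (11 of 11 detected) was called. Their sum was 208 to 347 CPM in mutants and 357 to 375 CPM in controls (exact permutation p = 0.0286). For the macrophage score, the mean of their log values, the groups overlapped (exact permutation p = 0.0857). Of the 11 macrophage markers, 8 had log2 fold changes below 0 and 3 above. Groups did not overlap for 4 lower markers and for 1 higher marker, Cd163 (log2 0.87). With the macrophage score as a covariate Abca1 had -1.32 (adjusted p = 0.167). The part of the T cell, proximal and enterocyte markers was not tested.

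For uptake, Npc1l1 was at 387, 247, 485 and 283 CPM in the same mutant duodena and at 341, 379, 323 and 192 CPM in the controls. The groups interleaved, and the log2 fold change was 0.18 (SE 0.25, 95% interval -0.37 to 0.73). Scarb1 averaged 58.7 ± 29.5 CPM in mutants and 82.1 ± 33.7 CPM in controls, with 1 high library in each, NFVCT27 at 101 CPM and NF29 at 130.3 CPM. Soat2, which makes cholesteryl esters, was at 41.3 to 104 CPM in mutants and 62.1 to 94.6 CPM in controls.

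The luminal exporters ranked their libraries alike. Abcg5 was at 133, 114, 173 and 86.6 CPM in mutant duodenum and at 183, 209, 142 and 157 CPM in control duodenum. Abcg8 was at 133, 130.4, 147 and 82.6 CPM in mutants and at 177, 184, 131 and 139 CPM in controls. Both were lower on average in mutants, at log2 fold changes of -0.45 (SE 0.20, unadjusted p = 0.0478, adjusted p = 0.565) for Abcg5 and -0.36 (SE 0.19, adjusted p = 0.653) for Abcg8, and neither passed the test. Mutant NFVCT190 was lowest for both, and for Soat2 and Nr1h3 as well. It is also the mutant duodenum with the largest acinar share, 16.5% of counts. With the acinar score as a covariate the log2 fold changes were -0.56 for Abcg5, -0.46 for Abcg8, -0.28 for Soat2 and -0.20 for Nr1h3. Without NFVCT190 and the most acinar control, NF17, they were -0.29 for Abcg5, -0.16 for Abcg8, 0.12 for Soat2 and -0.10 for Nr1h3, and none was called in either fit.

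Abcg1 averaged 7.68 ± 1.77 CPM in mutant duodenum and 9.83 ± 1.17 CPM in control duodenum, a difference of -0.37 on the log2 scale (SE 0.18, adjusted p = 0.607). The LXR genes did not pass either, with Nr1h3 at 41.1 ± 5.7 CPM in mutants and 45.2 ± 2.1 CPM in controls, and Nr1h2 at 53.4 ± 5.5 CPM in mutants and 56.4 ± 8.8 CPM in controls. Their 95% intervals on the log2 scale were -0.40 to 0.12 for Nr1h3 and -0.38 to 0.20 for Nr1h2. Mylip was at 7.97 ± 0.89 CPM in mutants and 8.49 ± 1.42 CPM in controls. Over the 10 genes, 9 log2 fold changes were below 0 and 1 was above, against 7359 of all 14703 genes tested below 0. The median was -0.25, against -0.0002 over all genes tested. The 10 genes were not tested as a set.

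**Figure D2:**
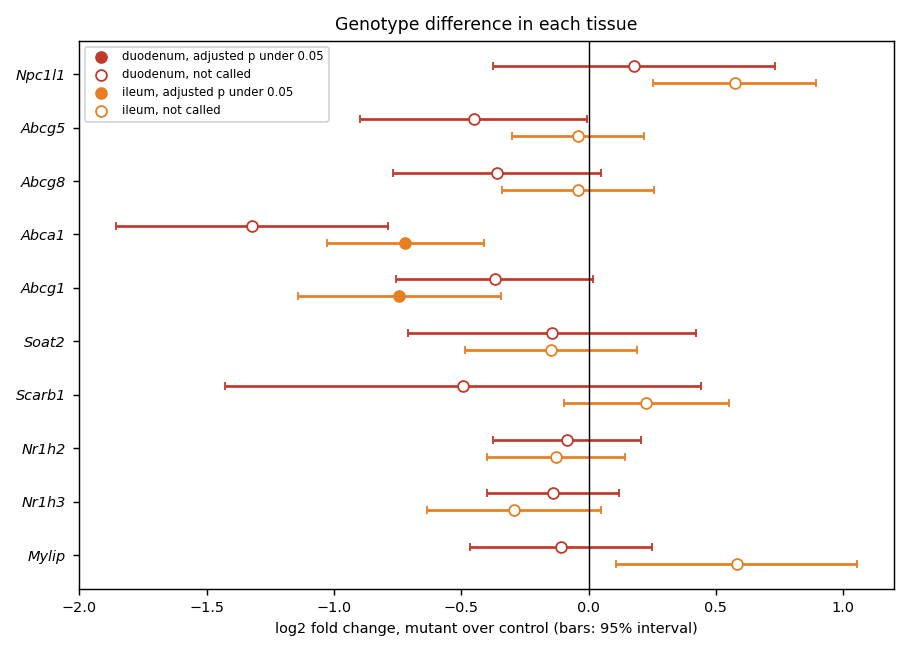
Log2 fold change, mutant over control, of the 10 genes in duodenum and ileum with 95% intervals (edgeR, 4 libraries a group), with calls at an adjusted p under 0.05 marked. Abca1 is below 0 in both tissues, Abcg1 is called in the ileum, and Npc1l1 and Mylip have ileal values above 0.

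In the ileum the same comparison gave 2 called genes, Abca1 and Abcg1, both lower in mutants. Both are LXR targets, but the other LXR targets among these genes did not follow them. Abcg5 and Abcg8 had log2 fold changes of -0.04 each and Mylip had 0.58, none of them called. The cells that the counts came from were not tested. Of 14951 genes tested, 490 passed, or 3.28% (1.77% higher and 1.51% lower), and 10.1% had groups that did not overlap (5.79% higher and 4.35% lower). Abca1 was at 60.7, 77.2, 56.6 and 74.4 CPM in mutants NFVCT27, NFVCT38, NFVCT153 and NFVCT190, and at 108, 92.1, 139.9 and 97.0 CPM in controls NF17, NF29, NF32 and NF152. The groups did not overlap, and Abca1 fell by 0.72 on the log2 scale (SE 0.14, 95% interval -1.03 to -0.41, adjusted p = 0.0137). No single library decided this call: the adjusted p of Abca1 ran from 0.0107 to 0.0483 when each was left out in turn, 8 fits in all.

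Abcg1 was at 7.72, 5.72, 9.78 and 7.93 CPM in mutant ileum and at 10.97, 10.9, 13.8 and 15.4 CPM in control ileum. The highest mutant lay just under the lowest control. Abcg1 fell by 0.74 (log2, SE 0.19, 95% interval -1.14 to -0.34, adjusted p = 0.0428), but the call held in only 2 of the 8 fits without 1 library, those without mutant NFVCT153 or control NF29, and it was lost without NFVCT27, NFVCT38, NFVCT190, NF17, NF32 or NF152 (adjusted p over the 8 fits 0.0240 to 0.135).

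Marker lists moved with genotype in the same ileal libraries. Smooth muscle markers were higher in mutant ileum, with 6 of 10 called higher, and macrophage markers (11 of 11 detected, 1 called lower) summed to 290.0 to 375 CPM in mutant ileum and 324 to 415 CPM in control ileum (exact permutation p = 0.171). With a smooth muscle score in the model the Abca1 adjusted p was 0.529 and that of Abcg1 0.639. That score did not overlap between genotypes (8.67 to 9.09 in mutant ileum, 7.97 to 8.43 in control ileum), so this fit could not divide it from genotype. The SE was 0.32 for Abca1, against 0.14 without the score, and 0.41 for Abcg1, against 0.19. With a macrophage score the adjusted p was 0.0540 for Abca1 and 0.0549 for Abcg1, and with an acinar score 0.0505 and 0.0717. The fold changes of Abca1 and Abcg1 in these fits stayed below 0 (log2 -0.63 to -0.81 for Abca1 and -0.74 to -0.91 for Abcg1).

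Other lists differed in the ileum as well. Enterocyte markers (8 of 8 detected) summed to 29273 to 37163 CPM in mutants and 15099 to 18745 CPM in controls (exact permutation p = 0.0286), with Sis and Mgam called higher and Anpep lower; the mean of their log values gave p = 0.743 in the same test, and that of the distal markers below p = 0.371. Stem cell markers (4 of 4 detected, Olfm4 called lower) summed to 275 to 391 CPM in mutants and 613 to 796 CPM in controls, and distal markers (3 of 3 detected, 0 called) to 1508 to 2607 CPM in mutants and 3028 to 5252 CPM in controls (exact permutation p = 0.0286 for each). T cell markers (9 of 9 detected, 2 called lower, Lck and Cd3e) summed to 33.6 to 151 CPM in mutants and 112 to 194 CPM in controls (exact permutation p = 0.0857, and 0.0286 for the mean of their log values). The part of these lists in the ileal values of Abca1, Abcg1 and Npc1l1 was not tested.

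Npc1l1, the uptake protein, had higher values in mutant ileum. It was at 458, 399, 616 and 475 CPM in mutants and at 375, 334, 325 and 258 CPM in controls. All 4 mutants were above all 4 controls, the log2 fold change was 0.57 (SE 0.15, 95% interval 0.26 to 0.89) and the adjusted p of 0.0509 missed the threshold. Without mutant NFVCT38 the adjusted p was 0.0466, and over the 8 fits it ran to 0.119. With the smooth muscle score as a covariate the log2 fold change was -0.06 (SE 0.26, adjusted p = 0.954). That score did not overlap between genotypes, so this fit could not divide it from genotype.

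Mylip, at 24.3 ± 7.3 CPM in mutant ileum and 15.96 ± 3.99 CPM in control ileum, had 0.58 on the log2 scale (SE 0.22, 95% interval 0.11 to 1.06, adjusted p = 0.199). Mutant NFVCT190, at 34.6 CPM, and control NF29, at 11.4 CPM, were the extremes, and control NF17 at 21.2 CPM lay within the mutant range. Abcg5 averaged 138 ± 18 CPM in mutants and 139.5 ± 20.9 CPM in controls, and Abcg8 121 ± 23 CPM in mutants and 122 ± 19 CPM in controls. The 95% intervals of their log2 fold changes were -0.30 to 0.22 for Abcg5 and -0.34 to 0.26 for Abcg8. Soat2 averaged 57.6 ± 10.7 CPM in mutants and 62.8 ± 12.1 CPM in controls, and Scarb1 11.3 ± 2.0 CPM in mutants and 9.44 ± 0.61 CPM in controls.

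The LXR genes themselves did not pass in the ileum. Nr1h3 was at 32.3 ± 8.2 CPM in mutants and 39.1 ± 4.0 CPM in controls (log2 fold change -0.29, SE 0.16, adjusted p = 0.414), and Nr1h2 at 36.4 ± 3.4 CPM in mutants and 39.2 ± 5.8 CPM in controls (-0.13, SE 0.13, adjusted p = 0.698). Over the 10 genes the median log2 fold change in the ileum was -0.09, against -0.006 over all genes tested. Of the 10, 3 were above 0, against 7305 of all 14951 genes tested.

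Whether the genotype effect differed between the tissues was tested as an interaction, ileum minus duodenum, over all 16 libraries. None of the 10 genes passed in edgeR's quasi-likelihood test, against 0.0441% of the 15882 genes tested (7 genes, 0.0378% higher and 0.0063% lower). At an unadjusted p under 0.05 there was 1 of the 10, Mylip, and 700 of all genes. DESeq2 called 38 genes, and none of the 10 was among them. The largest differences were 0.73 (SE 0.45) for Scarb1, 0.70 (SE 0.29, unadjusted p = 0.0247) for Mylip and 0.62 (SE 0.30, unadjusted p = 0.0559) for Abca1. The effects on Abcg1 in the ileum and Abca1 in the duodenum are therefore not shown to belong to 1 tissue.

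The paired transporters and receptors were also compared as ratios of their levels per length within a library. The ratio of Abcg5 to Abcg8 was 1.60 ± 0.17 in mutant ileum, 1.58 ± 0.08 in control ileum, 1.42 ± 0.17 in mutant duodenum and 1.51 ± 0.07 in control duodenum. Nr1h3 over Nr1h2 was 1.19 ± 0.32 in mutant ileum, 1.35 ± 0.23 in control ileum, 1.03 ± 0.09 in mutant duodenum and 1.09 ± 0.20 in control duodenum. Abca1 over Abcg1 was 6.43 ± 2.29 in mutant ileum, 6.11 ± 1.23 in control ileum, 4.08 ± 0.74 in mutant duodenum and 7.57 ± 2.18 in control duodenum. The duodenal ranges, 3.19 to 4.94 in mutants and 5.89 to 10.8 in controls, did not overlap. Those of Abca1 itself did not overlap there either, while those of Abcg1 did. The ratios, and their difference between tissues, were not tested.

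Other genes of the pathways were read from lists, which were also chosen with earlier results of these data known. In the duodenum none of 12 further LXR targets passed, 6 having a log2 fold change above 0 and 6 below. Those of smallest p were Fasn, fatty acid synthase, at 0.66 (SE 0.19, adjusted p = 0.222), and Arl4c, a small GTPase, at -0.50 (SE 0.14, adjusted p = 0.233). Among 26 SREBP2 targets, 6 rose in the duodenum and all 26 had values above 0 (median 0.77). The 4 of smallest p were enzymes of cholesterol synthesis: Cyp51 rose to 144 ± 32 CPM in mutants, against 49.3 ± 5.2 CPM in controls (log2 1.54, SE 0.16, adjusted p = 0.00135), Lss by 1.09 (SE 0.16, adjusted p = 0.0124), Sqle by 1.38 (SE 0.22, adjusted p = 0.0317) and Msmo1 by 1.29 (SE 0.21, adjusted p = 0.0326). When libraries were left out in turn, Cyp51 was called in all 8 fits, Lss in 6, and Sqle and Msmo1 in 3 each.

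In the sterol sensing list of 7 genes, none passed in the duodenum; Srebf2 had 0.61 (SE 0.13, adjusted p = 0.0919). None of the 8 lipoprotein assembly genes tested passed, though all 8 were below 0 (median -0.36), with Apob, the core protein of chylomicrons, at 4908 ± 1124 CPM in mutants and 7873 ± 2008 CPM in controls (adjusted p = 0.535). Trafficking (11 genes), LXR partners (9 tested), oxysterol enzymes (4 tested) and bile acid genes (4 tested) gave no call in the duodenum. Unadjusted, p was under 0.05 for 6 LXR targets, 2 sterol sensing genes, 1 gene each of trafficking, lipoprotein assembly, LXR partners and oxysterol enzymes, and 0 bile acid genes, against 1280 of all 14703 genes. DESeq2 called 1 sterol sensing gene and 0 in the rest of these lists, and limma-voom called 0 in all of them.

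In the ileum, 1 of the 12 LXR targets rose. Scd1, the stearoyl-CoA desaturase, was at 765 ± 165 CPM in mutants and 235 ± 62 CPM in controls (log2 1.68, SE 0.23, adjusted p = 0.00512), a direction opposite to that of Abca1 and Abcg1. None of the 26 SREBP2 targets passed (23 above 0, median 0.35), with Acat2 at 0.64 (adjusted p = 0.0866) and Insig1 at 0.71 (adjusted p = 0.106) of smallest p. Among 8 LXR partners, the coactivator Ncoa1 rose by 0.63 (SE 0.14, adjusted p = 0.0232), a call lost without control NF17 or control NF152. Sterol sensing, trafficking, receptor, lipoprotein, oxysterol and bile acid genes gave no call, Fabp6, the ileal bile acid binding protein, being at 796 ± 425 CPM in mutants and 3020 ± 909 CPM in controls (log2 -1.95, SE 0.46, adjusted p = 0.0864). Unadjusted, p was under 0.05 for 11 SREBP2 targets, 4 receptors, 2 genes each of sterol sensing, trafficking and bile acids, 1 lipoprotein gene and 0 oxysterol genes, against 2356 of all 14951 genes. DESeq2 called 4 SREBP2 targets and 1 gene each of sterol sensing, lipoprotein assembly and bile acids, and limma-voom called 1 bile acid gene.

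**Figure D3:**
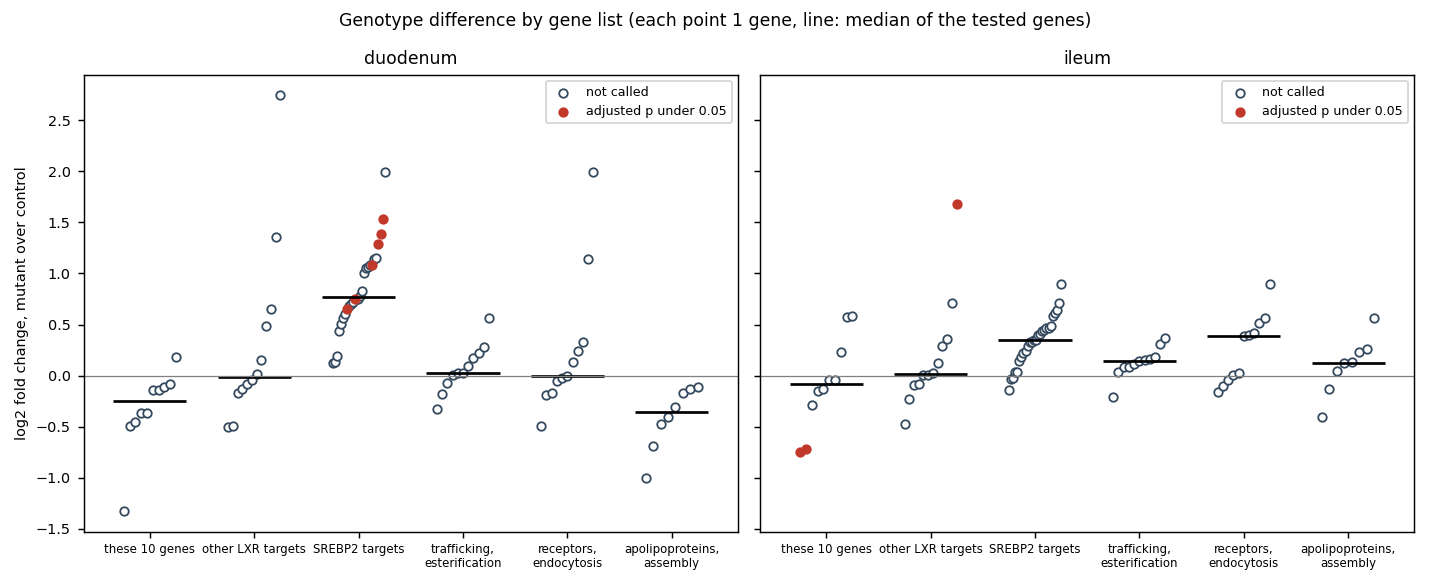
Log2 fold changes, mutant over control, of the genes in each sterol list, for duodenum and ileum, with called genes marked (edgeR, 4 libraries a group). All 26 SREBP2 targets lie above 0 in the duodenum, whereas the LXR targets straddle 0 in both tissues.

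Tissue was compared within each genotype, ileum over duodenum. These comparisons share libraries with the genotype tests, so values are set side by side only. In mutants, 4 of the 10 genes passed, all without overlap of the groups, against 32.3% of 14950 genes tested (15.2% higher and 17.1% lower) and 32.7% without overlap (16.8% higher and 15.9% lower). In controls 3 passed, all without overlap, against 35.9% of 14976 genes tested (17.1% higher and 18.7% lower) and 34.6% without overlap (16.8% higher and 17.8% lower). Both shares are near the background. Scarb1 had the steepest gradient: it was at 14.04, 10.2, 9.55 and 11.3 CPM in mutant ileum against 101, 53.7, 32.5 and 47.7 CPM in mutant duodenum, with -2.40 on the log2 scale (SE 0.34, adjusted p = 0.000887). In control ileum Scarb1 was at 10.1, 9.56, 8.63 and 9.48 CPM against 61.1, 130.3, 56.9 and 80.2 CPM in control duodenum, with -3.11 on the log2 scale (SE 0.26, adjusted p = 2.18e-05). This lipoprotein receptor was lower in every ileal library than in any duodenal library.

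Mylip ran the opposite way. It was at 23.5, 21.6, 17.4 and 34.6 CPM in mutant ileum and 7.31, 7.81, 7.48 and 9.27 CPM in mutant duodenum (log2 1.60, SE 0.20, adjusted p = 0.000142), and at 21.2, 11.4, 15.3 and 15.9 CPM in control ileum and 6.61, 9.63, 8.17 and 9.55 CPM in control duodenum (0.92, SE 0.19, adjusted p = 0.00209). The groups did not overlap in either genotype. Nr1h2 fell in the ileum of mutants by 0.58 (log2, SE 0.11, adjusted p = 0.00285) and of controls by 0.52 (SE 0.14, adjusted p = 0.00983), while Nr1h3 had -0.37 (SE 0.18, adjusted p = 0.135) in mutants and -0.20 (SE 0.11, adjusted p = 0.151) in controls. Abca1 rose in mutant ileum over mutant duodenum by 0.61 (SE 0.13, adjusted p = 0.00477), and had 0.02 (SE 0.26, adjusted p = 0.956) in controls.

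Npc1l1 averaged 487 ± 92 CPM in mutant ileum against 351 ± 108 CPM in mutant duodenum (log2 0.45, SE 0.22, adjusted p = 0.132), and 323 ± 49 CPM in control ileum against 309 ± 81 CPM in control duodenum (0.07, SE 0.19, adjusted p = 0.797). With the animal as a block the mutant value was 0.48 (SE 0.14, adjusted p = 0.0298), a call. In controls, the block also took Abcg8 (-0.36, adjusted p = 0.0352, against 0.0589 without it) and Soat2 (-0.39, adjusted p = 0.00799, against 0.0812) past the threshold. Abcg5 had 0.09 (SE 0.18, adjusted p = 0.727) in mutants and -0.30 (SE 0.14, adjusted p = 0.111) in controls, and Abcg1 -0.003 (SE 0.21) in mutants and 0.39 (SE 0.16, adjusted p = 0.0717) in controls. Acinar markers, all 13 lower in ileum, differ between the tissues as well. With scaling to epithelial markers the median of all genes shifted by -0.14 (log2) in mutants, with 1102 genes called higher and 2367 lower against 2274 and 2559, and Abca1 was no longer called. In controls it shifted by -0.31, with 924 higher and 5479 lower against 2568 and 2804, and 7 of the 10 genes were called.

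**Figure D4:**
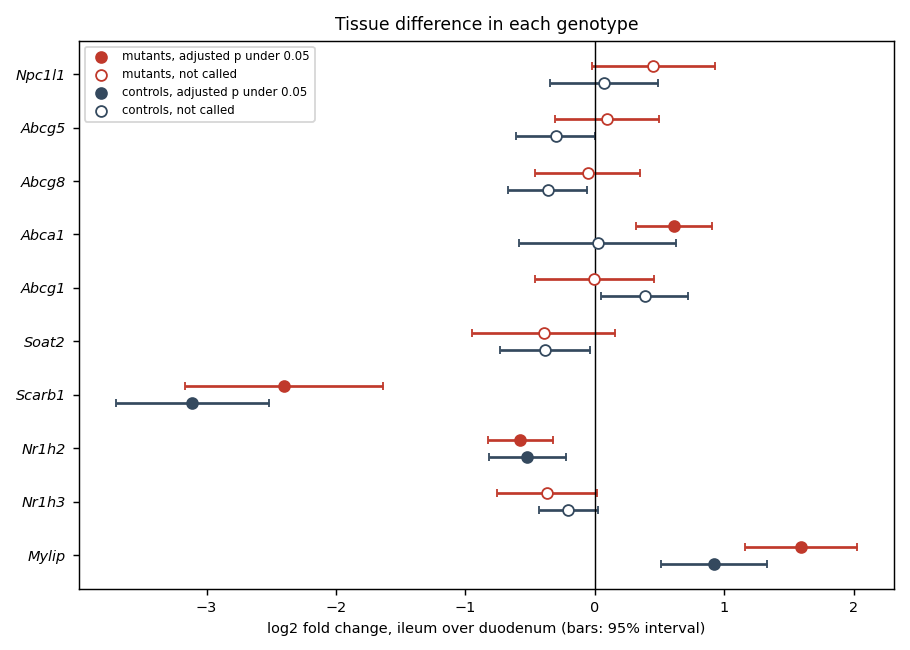
Log2 fold change, ileum over duodenum, of the 10 genes in mutants and in controls with 95% intervals (edgeR, 4 libraries a group). Scarb1 is far below 0 and Mylip above 0 in both genotypes, and Abca1 is above 0 in mutants and near 0 in controls.

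Counts for the other sterol lists are to be read against the 32.3% of all genes called in mutants and the 35.9% called in controls. Among 26 SREBP2 targets, 12 rose and 2 fell in mutant ileum over mutant duodenum, and 17 rose and 1 fell in control ileum over control duodenum. Hmgcs1, an early enzyme of cholesterol synthesis, averaged 459 ± 84 CPM in control ileum and 127 ± 12 CPM in control duodenum (log2 1.86, adjusted p = 7.85e-07). In the lipoprotein list 2 of 8 genes fell in mutants and 5 of 8 in controls, with Mttp, the lipid transfer protein of chylomicron assembly, at 1182 ± 235 CPM in mutant ileum against 3003 ± 820 CPM in mutant duodenum (-1.37, adjusted p = 0.00127). Of 12 LXR targets, 3 rose and 2 fell in mutants, and 5 rose and 3 fell in controls, with Scd1 at 3.79 (SE 0.24, adjusted p = 1.83e-06) in controls. All 6 bile acid genes rose in controls and 5 of 6 in mutants. Nr0b2, a nuclear receptor partner, averaged 0.245 ± 0.144 CPM in control ileum against 5.29 ± 1.01 CPM in control duodenum, and had 0 counts in mutant ileum against 3.49 ± 2.09 CPM in mutant duodenum.

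The genes whose pattern was most like those of Npc1l1, Abcg5 and Abca1 were sought by the root mean square difference of centred log2 CPM over the 16 libraries, among 10891 genes of at least 5 CPM. This is a description over libraries that share animals and depth, and it carries no test. For Npc1l1 they were Igsf3 (0.24), Myo15b (0.24) and Cyb561 (0.24), where the median gene was at 0.49. For Abcg5 they were Rnf167 (0.14), Ganc (0.15) and Itm2b (0.16), with a median of 0.41 over all genes, and Abcg8 was closer than any of them, at 0.13. For Abca1 they were Tnfsf13b, which encodes a B cell survival cytokine (0.35), Gabra3 (0.35) and Plscr4 (0.37), with a median of 0.67. Tnfsf13b averaged 5.08 ± 1.06 CPM in mutant duodenum and 12.4 ± 3.3 CPM in control duodenum, and 6.73 ± 0.88 CPM in mutant ileum and 8.97 ± 0.53 CPM in control ileum. On this scale Abca1 had no counterpart as near as those of Npc1l1 and Abcg5. Its median over all genes was also larger (0.67 against 0.49 and 0.41), and the difference was not scaled to the spread of a gene.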

How the data were processed

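Total RNA was sequenced from 16 libraries, 4 in each of 4 groups of tissue and genotype. Per the submitters' processing notes, STAR 2.5.3a, Bowtie2 2.2.8, HTSeq 0.6.1p1 and, cutadapt 1.10 and bcl2fastq 2.20.0.422 were used with mm39. The deposited table holds raw counts per Ensembl gene, not normalised, per its header and values; 52083 of 55359 identifiers matched a symbol. Tests used edgeR 4.0.16 under R 4.3.3 (TMM, default filter on low counts by group, robust quasi-likelihood F test, Benjamini-Hochberg over all genes tested, threshold 0.05). CPM were computed with TMM factors over all 16 libraries, with a pseudocount of 0.5 on the log2 scale. SE is the log2 fold change over the square root of F. CPM per kb used exon lengths of GENCODE M21, another build, as lengths only. Alternatives used limma 3.58.1 and DESeq2 1.42.0. The members and lists were chosen with earlier results of these data known. All 10 members are named; of each other list, up to 4 called genes of smallest p, or up to 2 where none was called, could be named. Tests were checked on simulated data. Animals gave both tissues per the labels, and their libraries' deviations correlated at 0.136 to 0.407, so the animal was a block in an alternative. The highest correlation of a duodenal library with the ileum of another animal was 0.0719 to 0.250. For NFVCT190 it was above that with its own ileum (0.250 against 0.189). Replicates are separate animals, and no pair of libraries agreed within sampling noise. Intervals cover these libraries, and PCR copies are not independent molecules. Some genes of the lists are not reported here.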

Additional observations from a re-analysis of the deposited data

Results flagged for a closer look

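Of 40 sets of 4 libraries (10 genes in 4 groups), 1 held a library far from the other 3: Abcg8 in the ileum of control NF17, at 150.5 CPM against 108 to 115 CPM in the other controls. Chance flags about 1 in 20 such sets.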

How the results depend on the processing

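Alternatives were compared with the counts of called genes given above. In the duodenum 58 genes were called; there were 169 with no filter on low counts, 310 with DESeq2, 167 with scaling to epithelial markers, 151 in a fit of all 16 libraries and 31 with the most acinar library of either genotype left out, and 27 to 61 without each replicate. Of the 10 genes, 1 (Abca1) was called with DESeq2 (adjusted p = 3.26e-05), 1 with epithelial scaling and 1 in the fit of all libraries (adjusted p = 0.00578), and 0 to 1 without each replicate. In the ileum 490 genes were called; there were 1096 with no filter, 875 with DESeq2, 16 with the smooth muscle score as covariate, 194 without the libraries of highest acinar share, and 272 to 472 without each replicate. Of the 10 genes, 2 were called in the ileum; there were 4 with no filter (Npc1l1 and Mylip added), 3 with DESeq2 or its size factors (Npc1l1 added), 1 with limma-voom, 1 with epithelial scaling, 1 in the fit of all libraries (Abcg1, with Abca1 at adjusted p = 0.104), 0 with the acinar, smooth muscle or macrophage score, 0 without the libraries of highest acinar share, and 1 to 2 without each replicate. The interaction had 7 genes, against 15 with no filter, 38 with DESeq2, 15 with epithelial scaling (median shift 0.19) and 16 with the animal as replicate block, and 3 to 13 without each replicate. Control tissue had 3 of the 10 called, against 5 with no filter, 7 with epithelial scaling, 5 with the replicate block and 3 to 5 without each replicate; its genes called ran from 4247 to 5455 without each replicate. Mutant tissue had 4, against 5 with the replicate block and 4 to 5 without each replicate, with 3706 to 5400 genes. The block changed no other call among the 10.

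Npc1l1 in the ileum, 0.57 with groups apart, was -0.0592 (SE 0.26) with the smooth muscle score, which did not overlap between genotypes. The other values that turned sign were not called. In the duodenum Npc1l1 was -0.0466 with epithelial scaling and -0.0168 to 0.32 without each replicate. Soat2 was 0.16 with the macrophage score, 0.12 without the libraries of highest acinar share and -0.35 to 0.0478 without each replicate. Nr1h2 was 0.0519 without those libraries and -0.17 to 0.0095 without each replicate. In the ileum Abcg5 was 0.0227 and Abcg8 0.0425 with the acinar score, and they ran from -0.12 to 0.0509 and from -0.13 to 0.0714 without each replicate. In the interaction Soat2 was -0.0192 with no filter and -0.21 to 0.22 without each replicate, Nr1h2 0.15 with epithelial scaling and -0.14 to 0.0662, and Nr1h3 0.0635 and -0.25 to 0.0120. In control tissue Npc1l1 was -0.26 and Abca1 -0.30 with epithelial scaling, with ranges of -0.10 to 0.18 and -0.12 to 0.34. In mutant tissue Abcg1 was 0.0116 with DESeq2 size factors, 0.0114 with DESeq2 and -0.13 to 0.15 without each replicate, Abcg5 was -0.000616 with epithelial scaling and -0.0487 to 0.30, and Abcg8 ran from -0.20 to 0.0623. The cause was not tested. The lowest counts a library were those of Abcg1 (66 to 362), Mylip (81 to 646) and, in the ileum, Scarb1 (85 to 282).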
